A study of Rattus norvegicus with 24 samples.

Results

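The oxytocin and vasopressin system was described by 5 genes, measured in the medial prefrontal cortex of rats (strain Sprague Dawley) aged 45 postnatal days: the peptide genes Oxt (ENSRNOG00000021225) and Avp (ENSRNOG00000021229), the receptor genes Oxtr (ENSRNOG00000005806) and Avpr1a (ENSRNOG00000004400), and Cd38 (ENSRNOG00000003069). They were chosen by a list of gene IDs, with no threshold on their values, and all 5 were found among the 32883 genes of each deposited table. The names came with the list of IDs, since the tables pair no ID with a name. The animals were offspring of births induced with oxytocin or given saline, and the labels put them into 4 groups of 6 libraries: oxytocin male, saline male, oxytocin female and saline female. Each library is bulk RNA of the cortex of both hemispheres, and neither a litter nor a batch is named, so littermates would count as separate replicates. The question was whether expression differed between oxytocin and saline in either sex.

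The labels and the names of the deposited files conflict, which bears on every direction below. In 24 of 24 libraries the file name carries the other sex and the other treatment. A search for genes at 5 or fewer reads in every library of 1 labelled sex and at 100 or more in every library of the other found 4 genes restricted to labelled females and 1 restricted to labelled males. These genes could not be matched to names, so which naming is right was not tested. Groups are called by their labels throughout. By the file names the labelled male comparison would be the female one with its sign turned, and the reverse, the average over sexes and the sex comparison would change sign, and the interaction would keep its sign. Libraries held 15.9 to 24.3 M estimated reads, and the shallowest group was oxytocin female (17.4 ± 0.888 M reads, against 20.2 ± 2.18 M in saline female, SD, n = 6 each).

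Oxytocin and vasopressin are short peptides cut from larger precursors made mainly by magnocellular neurons of the hypothalamus, whose axons release them into the blood and into other brain areas. Oxytocin acts through a receptor coupled to Gq proteins, encoded by Oxtr, and vasopressin acts in the brain largely through the related V1a receptor, encoded by Avpr1a. Each peptide can also bind the other's receptor. Cd38 encodes an enzyme that makes cyclic ADP-ribose, a messenger of calcium release, and mice without it release less oxytocin. In cortex the receptors are known from subsets of neurons, while the peptides arrive mostly by axons. In bulk tissue fewer cells that express a gene and less RNA per cell cannot be told apart.

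Oxt and Avp are neighbours on chromosome 3, on opposite strands, with 0 other genes starting between them in the RefSeq table used here (assembly GRCr8). The 250 bases before each start site are shown because both genes had their highest level in the same library. All 5 genes were found in the RefSeq promoter table, which uses a newer assembly than the deposited counts. Capitals mark CATAAA and AGGTCA on either strand, the first resembling a TATA box and the second a half-site of nuclear receptors. These motifs do not overlap each other.
Oxt, chr3:138235504-138235753, plus strand: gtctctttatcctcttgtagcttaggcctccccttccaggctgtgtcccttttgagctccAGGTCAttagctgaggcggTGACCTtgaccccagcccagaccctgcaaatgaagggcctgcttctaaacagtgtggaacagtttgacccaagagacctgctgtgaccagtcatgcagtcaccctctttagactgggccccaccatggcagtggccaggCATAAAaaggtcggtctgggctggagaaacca
Avp, chr3:138248523-138248772, minus strand: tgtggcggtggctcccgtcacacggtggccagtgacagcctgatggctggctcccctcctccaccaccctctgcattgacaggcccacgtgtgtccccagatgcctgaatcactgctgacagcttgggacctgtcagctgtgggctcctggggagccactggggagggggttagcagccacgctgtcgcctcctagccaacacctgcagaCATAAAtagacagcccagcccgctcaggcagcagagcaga
Both windows hold CATAAA, at bases −32 to −27 of Oxt and −40 to −35 of Avp, counted back from the start site. Of 33469 RefSeq promoter windows of the same length, 11.4% hold it on either strand. AGGTCA stands at −190 to −185 of Oxt and, on the other strand, as TGACCT at −171 to −166, and it was not in the Avp window; 14.1% of windows hold it. The motif TGACGTCA, the cyclic AMP response element, was in none of the 5 genes' windows and is in 1.59% of all. The windows of Oxtr, Avpr1a and Cd38 held none of these letters.

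Levels were compared between genes as TPM, which is scaled by gene length. Cd38 was the highest of the 5 in 24 of 24 libraries, at 4.14 ± 0.734 TPM (SD, n = 24), from 3.10 to 5.72. Its mean exceeded that of 48.7% of the genes with any read. The other 4 were far lower. Avp stood at 0.691 ± 0.635 TPM, Avpr1a at 0.495 ± 0.177, Oxtr at 0.461 ± 0.251 and Oxt at 0.300 ± 0.764 (SD, n = 24 each). Among these 4 no neighbouring means differed by more than the spread of the difference over libraries. Avp was above Avpr1a in 13 of 24 libraries, and Avpr1a was above Oxtr in 14 of 24. Oxt was below Oxtr in 19 libraries and above it in 5.

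**Figure D1:**
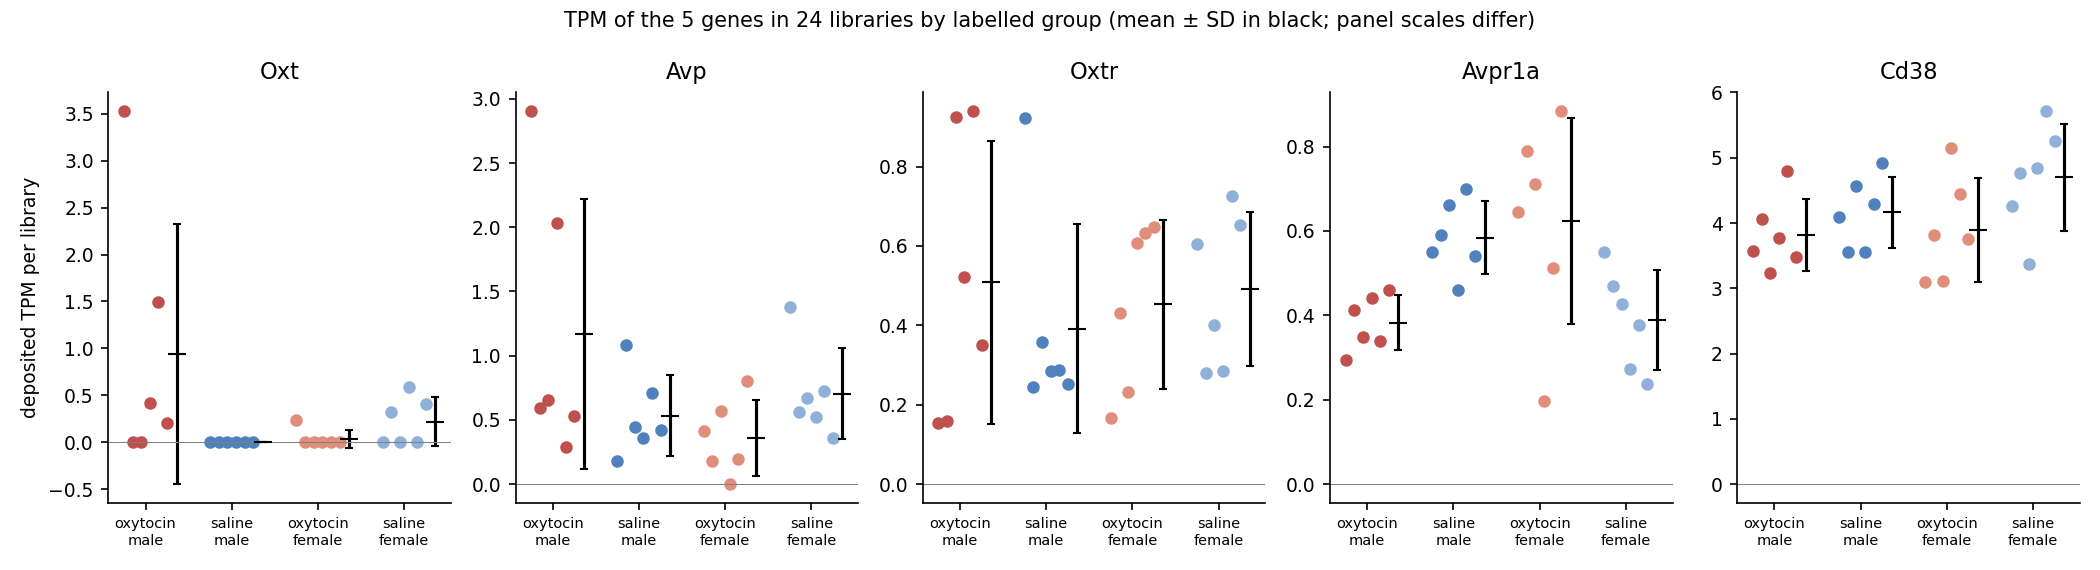
Deposited TPM of Oxt, Avp, Oxtr, Avpr1a and Cd38 in each of 24 libraries (points) by labelled group, with the group mean and SD in black, on a separate scale per gene. Oxt was listed at 0 in every saline male library, median Avpr1a was 0.381 TPM in oxytocin against 0.571 in saline males and 0.679 against 0.402 in females, neither difference passing the test, and Cd38 groups overlapped.

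A gene was tested if it reached 0.529 CPM (reads of the gene relative to the size of the library) in at least 6 libraries, the size of 1 group. Cd38 reached this in 24 libraries and Avpr1a in 12, and both were tested. Oxtr reached it in 4 libraries, Avp in 2 and Oxt in 1, so these 3 genes were too low to test. Their reads are described, and their values in a fit of all genes without a filter are given as an alternative. The 12 libraries of Avpr1a were mostly saline male and oxytocin female, where its mean was 0.584 and 0.624 TPM. It was 0.382 TPM in oxytocin males and 0.389 in saline females. The tests of Avpr1a thus follow a filter that it passed mainly through the groups where it was high. Within groups the reads of Avpr1a varied 0.860 times as much as counting error alone would give. The same ratio was 2.50 for Cd38, 2.09 for Oxtr, 2.23 for Avp and 4.10 for Oxt, for which saline males, at 0, do not enter. A ratio of 1 is the level of counting error, so only Avpr1a varied no more than that.

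Oxt, which encodes the oxytocin precursor, was listed at 0 in 16 of 24 libraries and had 36.55 reads in all. In oxytocin males the lowest, median and highest libraries held 0, 1.5 and 16.55 reads. All 6 saline male libraries were at 0, which over 119 M reads allows up to 3 reads, or 0.0253 CPM. Oxytocin females had 1 read in 1 library, and saline females had 7 reads in 3 libraries, with 3 in the highest. The groups overlapped in both labelled sexes, since 2 oxytocin male libraries were also at 0.

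Most Oxt reads came from a pair of libraries. Oxytocin male 1 held 16.55 reads (3.53 TPM) and oxytocin male 5 held 9 (1.49 TPM), together 69.9% of all Oxt reads of the series. Over the group, oxytocin males held 28.55 reads (95% exact Poisson interval of the rounded sum 19.4 to 41.6), at least 9.66-fold higher than saline males taken at a floor of 3 reads over the group. The exact 95% interval of the ratio of the rounded counts begins lower, at 7.49-fold. The bound from the floor fell to 4.81-fold without oxytocin male 1 and was 8.28-fold without oxytocin male 5. Without both, 3 reads remained in 4 libraries, at the floor, so that no fold is given. In the edgeR fit without a filter the difference had an adjusted p of 0.149 over 22001 genes (unadjusted p = 0.000668), and 0.535 without these 2 libraries. In labelled females the ratio of oxytocin to saline was 0.166 (95% exact interval of the counts 0.00368 to 1.29). These intervals and floors cover counting error only.

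Avp, which encodes the vasopressin precursor, had 93.45 reads and was at 0 in 1 library. The lowest, median and highest libraries held 2, 3.5 and 15.45 reads in oxytocin males and 1, 2.5 and 7 in saline males. They held 0, 1.5 and 4 reads in oxytocin females and 2, 4 and 8 in saline females. The groups overlapped in both labelled sexes. Summed over libraries, oxytocin males had 38.45 reads against 19 in saline males, a ratio of 2.03 by depth (95% exact interval of the counts 1.14 to 3.73). Oxytocin females had 11 against 25, a ratio of 0.511 (0.227 to 1.08). These intervals cover counting error only and are too narrow, since Avp varied 2.23 times as much as that within groups. Oxytocin male 1 and oxytocin male 4 together held 26.45 of the reads, 68.8% of their group. In the edgeR fit without a filter the log2 fold change was 1.06 in labelled males (SE 0.54, 95% interval −0.05 to 2.17, adjusted p = 0.602). It stood at −0.92 in labelled females (SE 0.62, adjusted p = 0.643). The interaction, the labelled male log2 fold change less the labelled female one, was 1.98 (SE 0.82, adjusted p = 0.751).

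Oxytocin male 1 was the library highest in both peptide genes, with 3.53 TPM of Oxt and 2.91 TPM of Avp. It was also the only library in which either gene had a count that was not whole. Its 16.55 and 15.45 reads add up to a whole number, 32. Reads that fit both genes could have been divided between them by the authors' counting, which was not tested. The number of such reads is not known, so the value of each gene in this library is uncertain by an unknown amount. The other libraries rich in 1 peptide gene were not rich in the other: oxytocin male 5 held 9 reads of Oxt and 2 of Avp, and oxytocin male 4 held 2 of Oxt and 11 of Avp. Markers of hypothalamic or other neighbouring tissue could not be matched to IDs, so their part in these reads was not tested.

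**Figure D2:**
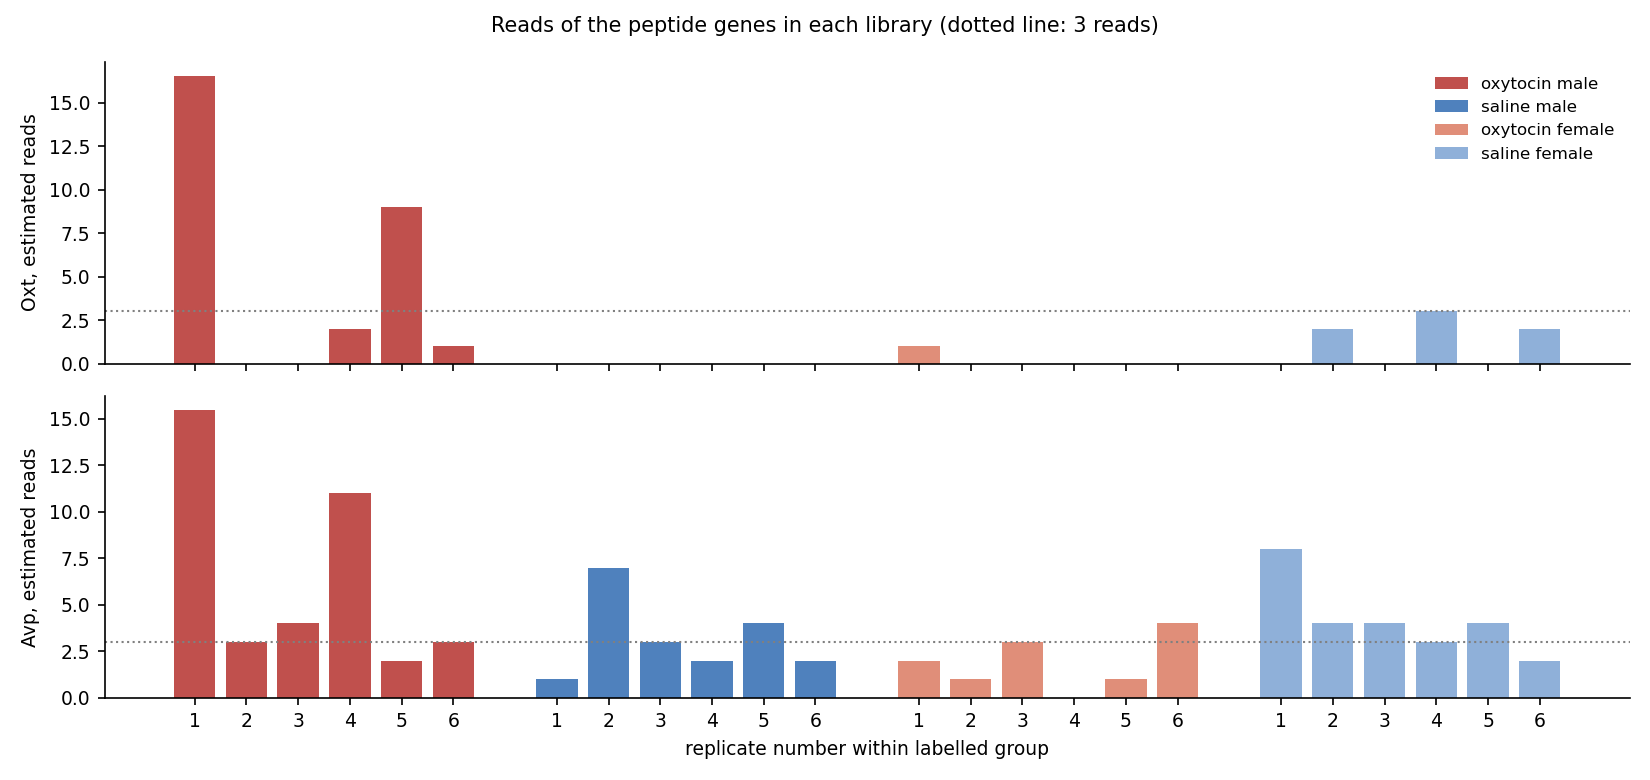
Estimated reads of Oxt (top) and Avp (bottom) in each library, 1 bar per library, grouped by labelled group and ordered by replicate number; the dotted line is at 3 reads, the number a count of 0 allows. Oxytocin male 1 holds 16.55 Oxt and 15.45 Avp reads, and the saline male libraries hold no Oxt read.

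Oxtr, the oxytocin receptor gene, was seen in every library, with 2 to 16 reads and 158 in all. Its annotated length in the deposited tables is 1218 bases. In oxytocin males the lowest, median and highest libraries were at 0.153, 0.436 and 0.941 TPM, and in saline males at 0.244, 0.287 and 0.922. In oxytocin females they were at 0.166, 0.519 and 0.648, and in saline females at 0.281, 0.502 and 0.727. Oxytocin males both began lower and ended higher than saline males, and the groups overlapped in both labelled sexes. Summed reads gave ratios of oxytocin to saline of 1.37 in labelled males (46 against 34 reads, 95% exact interval of the counts 0.863 to 2.21) and 0.945 in labelled females (35 against 43 reads, 0.587 to 1.51). A difference of oxytocin receptor RNA was therefore not detected at this depth. Differences within these intervals remain possible, and so do some beyond them, since the intervals cover counting error only. The edgeR fit without a filter put the log2 fold change of Oxtr at 0.41 in labelled males (SE 0.45, adjusted p = 0.808), and at −0.09 in labelled females (SE 0.46, adjusted p = 1). With libraries of 1 group spread more widely than counting error, the counting intervals are too narrow.

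Avpr1a, the vasopressin V1a receptor gene, had differences of opposite sign in the labelled sexes, and neither passed the test. In labelled males the lowest, median and highest oxytocin libraries were at 0.294, 0.381 and 0.459 TPM and the saline libraries at 0.461, 0.571 and 0.699. In labelled females the oxytocin libraries were at 0.196, 0.679 and 0.885 TPM and the saline libraries at 0.237, 0.402 and 0.551. Oxytocin males thus lay below saline males without overlap in TPM, by a gap of 0.459 to 0.461, as was the case in either direction for 0.877% of tested genes. In TMM-scaled CPM the same groups overlapped, with 5 of 6 saline libraries above every oxytocin library (1.19% of tested genes did not overlap on that scale). In labelled females 4 of 6 oxytocin libraries were above every saline library, and oxytocin female 4 was the lowest of all 12; there 0.563% of tested genes did not overlap in TPM and 0.73% in CPM.

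In edgeR's quasi-likelihood test the log2 fold change of Avpr1a was −0.64 in labelled males (SE 0.27, 95% interval −1.20 to −0.07, unadjusted p = 0.0282, adjusted p = 0.373). In labelled females it was 0.65 (SE 0.27, 95% interval 0.09 to 1.21, unadjusted p = 0.0239, adjusted p = 0.338). The interaction, which tests whether the labelled sexes differ in their response, was −1.29 (SE 0.39, 95% interval −2.09 to −0.50, unadjusted p = 0.00255, adjusted p = 0.532). By p it stood at place 66 of 14930 tested genes, of which 1089 had an unadjusted p under 0.05 and 0 were called. That place is among genes kept by the filter, which Avpr1a passed mainly through the groups where it was high. In the edgeR fit without a filter the interaction stood at place 118 of 22001 genes (unadjusted p = 0.00378, adjusted p = 0.684). The file names would leave the sign of this interaction as it is. The reads behind it were few: 49 in oxytocin males, 79 in saline males, 74 in oxytocin females and 55 in saline females. Averaged over labelled sexes the log2 fold change was 0.0071 (SE 0.20, 95% interval −0.41 to 0.42, adjusted p = 0.997).

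**Figure D3:**
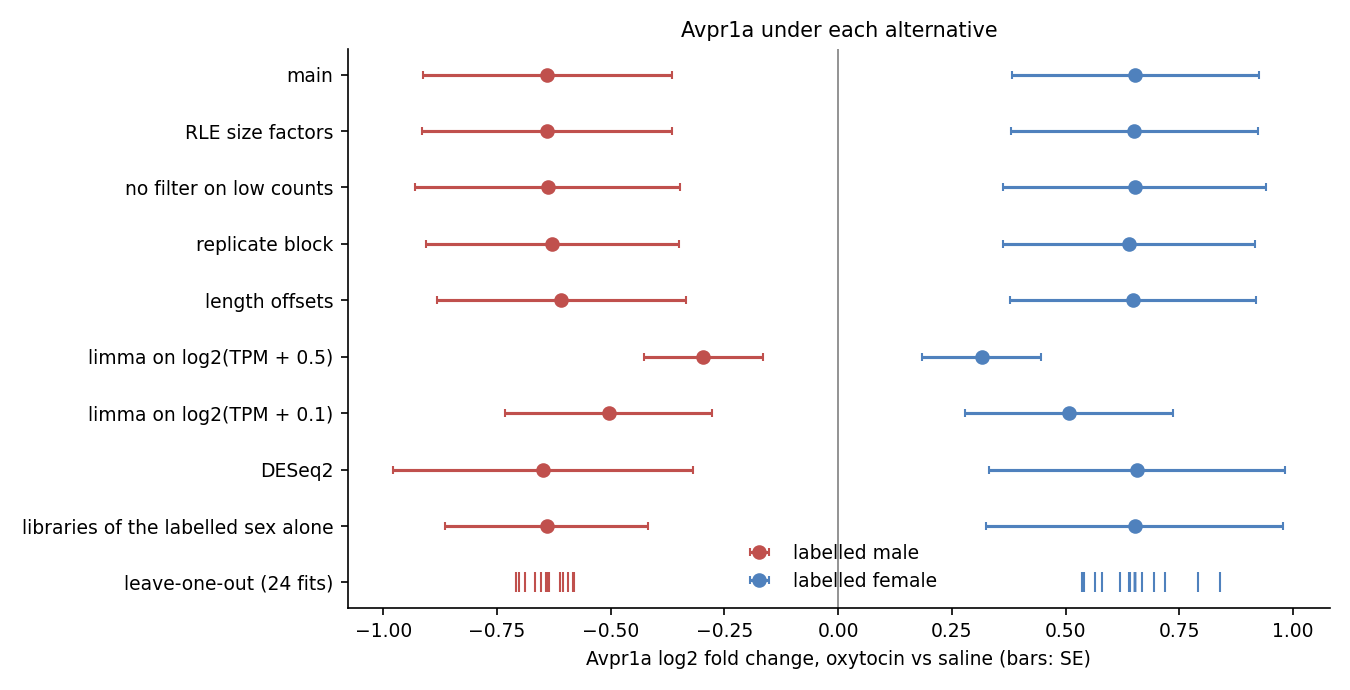
Log2 fold change of Avpr1a between oxytocin and saline in labelled males (red) and labelled females (blue) under each analysis setting, with SE bars; ticks in the lowest line are the 24 fits that each leave out 1 library. Every setting shown gave a value below 0 in labelled males and above 0 in labelled females, from −0.71 to −0.30 and from 0.32 to 0.84.

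Cd38 was the best measured of the 5 genes, with 55 to 125 reads per library. The lowest, median and highest libraries were at 3.24, 3.67 and 4.79 TPM in oxytocin males and 3.56, 4.19 and 4.92 in saline males. They were at 3.10, 3.78 and 5.15 TPM in oxytocin females and 3.37, 4.80 and 5.72 in saline females. Median levels were lower in oxytocin than in saline libraries of both labelled sexes, and the groups overlapped in both. The log2 fold change was −0.12 in labelled males (SE 0.15, 95% interval −0.42 to 0.18, adjusted p = 0.832). It was −0.27 in labelled females (SE 0.14, 95% interval −0.57 to 0.02, adjusted p = 0.443) and −0.20 on average (SE 0.10, 95% interval −0.41 to 0.01, adjusted p = 0.348). The interval of the average runs from 0.754-fold to 1.01-fold, so larger changes in either direction lie outside it. The interaction was 0.15 (SE 0.21, adjusted p = 0.906).

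Of the 2 tested genes, Avpr1a and Cd38, 0 were called at an adjusted p of 0.05 in any of the 5 comparisons by edgeR, and DESeq2 called 0 of those to which it gave an adjusted p. It gave none to Oxt, Avp, Oxtr and Avpr1a in labelled males and on average, nor to Oxt in labelled females and between labelled sexes. Over all tested genes edgeR called 0.161% of genes in labelled males, 0.0067% of genes in labelled females, 0.362% of genes averaged over sexes, 0% of genes in the interaction (where DESeq2 called 2 genes) and 0.228% of genes between labelled sexes. With so few genes called, a count of 0 among 2 genes is near the background. At an unadjusted p under 0.05 Avpr1a passed in labelled males, labelled females and the interaction, and Cd38 in none. The shares of all tested genes at that limit were 11.2%, 12.4% and 7.29%. The size of the Avpr1a change exceeded that of 98.5% of tested genes in labelled males, 98.4% in labelled females and 99.4% in the interaction. In the edgeR fit without a filter, over 22001 genes, it exceeded that of 82.6%, 83.3% and 88.5%, in that order. Genes with few reads have wider errors, so this place by size is a description only.

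**Figure D4:**
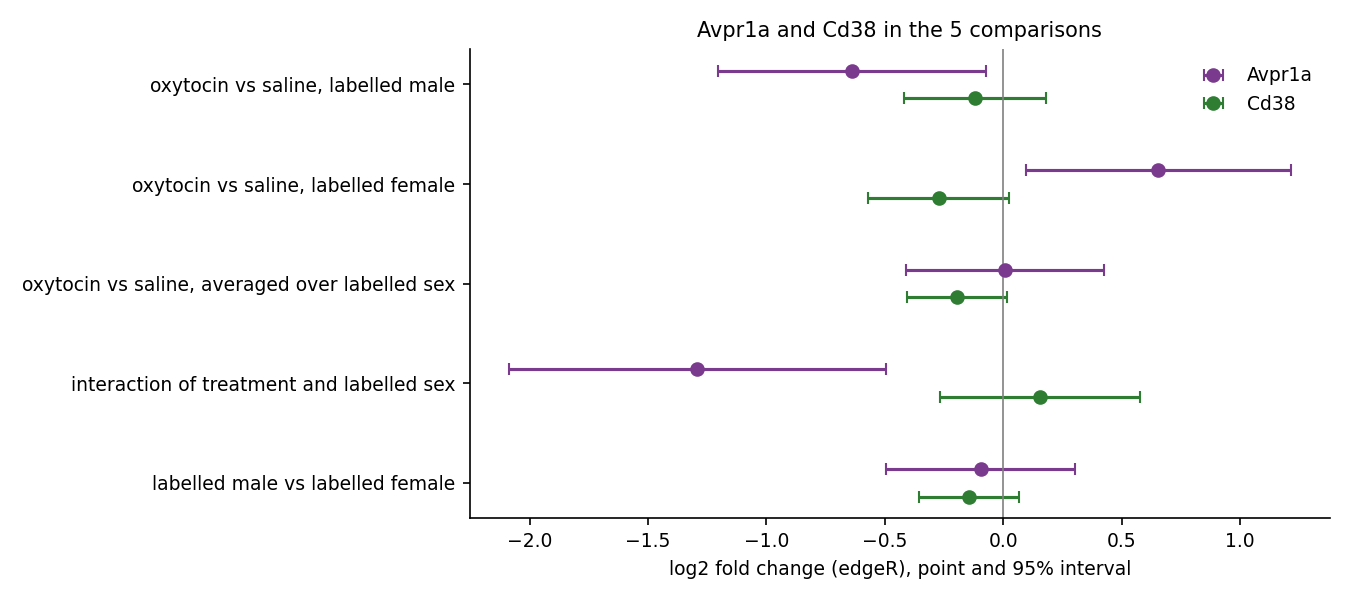
Log2 fold changes of Avpr1a (purple) and Cd38 (green) from edgeR in the 5 comparisons, as points with 95% intervals. The Avpr1a interval lies below 0 in labelled males and in the interaction and above 0 in labelled females, all before adjustment over genes, and every Cd38 interval spans 0.

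Between the labelled sexes, averaged over treatment, Avpr1a had a log2 fold change of −0.10 (male against female, SE 0.19, adjusted p = 0.911) and Cd38 of −0.14 (SE 0.10, adjusted p = 0.665). For the untested genes the edgeR fit without a filter gave 0.34 for Oxt (SE 0.68), 0.62 for Avp (SE 0.41) and −0.06 for Oxtr (SE 0.32), with adjusted p-values of at least 0.722. The value of Oxt turned to −0.89 (SE 0.71, adjusted p = 0.868) without oxytocin male 1 and 5. None of the 5 genes was thus shown to differ between the labelled sexes, and the files' names would turn each sign.

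The genes most like each tested gene were sought over the 24 libraries, by Pearson correlation of log2 CPM after subtracting group means, among 14929 other genes. For Avpr1a they were ENSRNOG00000018349 (r = 0.758, Spearman rho = 0.784) and ENSRNOG00000011661 (r = 0.749, rho = 0.533). Without the 2 libraries farthest from the median of Avpr1a these became 0.717 and 0.471, so the second rests on those libraries. For Cd38 they were ENSRNOG00000010104 (r = 0.759, rho = 0.726) and ENSRNOG00000005248 (r = 0.756, rho = 0.763), and 0.782 and 0.698 without 2 libraries. These IDs could not be matched to names, and the values are the highest of many correlations over libraries that share depth and processing, so no p is given.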

How the data were processed

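Poly(A)-selected RNA (oligo-dT, per the labels' protocols) of 24 libraries was analysed. Assembly Rnor_6.0, DRAGEN and bcl2fastq are named per the submitters' processing notes, with no version; annotation and strand setting were not given in the sources used here. Deposited values per gene are, per the file headers, estimated counts (NumReads), TPM and 2 lengths. The authors' estimated counts were rounded to whole numbers (by at most 0.5) for testing; the deposited TPM served to describe levels.

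Groups came from the titles. The test was that of edgeR 4.0.16 (R 4.3.3): filterByExpr (minimum count 10, minimum total 15; 14930 genes kept), TMM, 1 mean per group over all libraries, robust quasi-likelihood, Benjamini-Hochberg adjustment over all tested genes, calls at 0.05. The script was tested on simulated data. DESeq2 1.42.0, limma 3.58.1 on log2(TPM + 0.5) or log2(TPM + 0.1), RLE size factors, other filters, a replicate block, length offsets, single labelled sexes and leaving out each library were alternatives.

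The genes named were the 5 of the list and the 2 most correlated genes for each tested one. The members and lists were chosen with earlier results of these data known. Ensembl IDs are in 0 of the 47357 rows of the reference table, so prepared lists of other pathway genes and of cell type markers were not used, and the tissue label was not checked by markers. The lowest chi-square per gene between libraries of 1 group was 4.85, so no pair agreed within sampling noise.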

Additional observations from a re-analysis of the deposited data

Results flagged for a closer look

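In 3 of 19 sets of 6 libraries with any spread (5 genes in 4 groups, without Oxt in saline males) 1 library passed a limit on the gap to the other 5. Chance passes about 1 in 20 sets of continuous values, a rate that does not hold for small whole counts such as these. For Oxt in oxytocin females, oxytocin female 1 stood at 0.0617 CPM against 0 in the others, which is 1 read, within the 3 reads that a count of 0 allows. For Avp, saline female 1 stood at 0.408 CPM (8 reads), with the next at 0.213. For Oxtr, saline male 1 stood at 0.683 CPM (13 reads), with the next at 0.268. The other saline male libraries held 3 to 6 reads of Oxtr.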

How the results depend on the processing

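Under every alternative run, 0 of the genes of the set that it could test were called: Avpr1a and Cd38 in most, all 5 without a filter, Cd38 alone under the stricter filter, and 1 to 5 genes with DESeq2. The count over all genes moved: in labelled males, 24 in the main analysis, it was 160 with DESeq2, 116 with labelled males alone, 9 with the replicate block, 0 with limma on log2(TPM + 0.5) and 0 on log2(TPM + 0.1). In labelled females (1) it was 42 with DESeq2 and 0 with labelled females alone. On average (54) it was 356 with DESeq2 and 11 on log2(TPM + 0.5) and 11 on log2(TPM + 0.1), 5 higher and 6 lower. The interaction (0) gave 2 with DESeq2 and 1 with the replicate block, and the labelled sexes (34) gave 102 with DESeq2. The split of calls, 22 higher and 2 lower in labelled males and 36 and 18 on average, became 17 and 4, and 39 and 29, with length offsets, and 124 and 36, and 201 and 155, with DESeq2. Leaving out 1 library gave 0 (8 libraries, among them saline male 1) to 106 calls (saline female 2) in labelled males, 1 to 6 (saline female 6) in labelled females, 9 (saline male 2) to 334 (saline female 2) on average, 0 in the interaction and 29 to 60 (saline female 6) between labelled sexes.

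Avpr1a was below the stricter filter of 30 counts. Its sign held in labelled males, labelled females and the interaction under RLE size factors, no filter, the replicate block, length offsets, both TPM scales, DESeq2 and each library left out, and in labelled sexes fitted alone, where no interaction can be had. Where an adjusted p was given (DESeq2 gave none in labelled males) it ran from 0.211 to 0.524, 0.180 to 0.578 and 0.291 to 0.848, in that order. With the replicate block it was −0.63 in labelled males and 0.64 in labelled females. Same-numbered libraries correlated at 0.0269 on average (lowest −0.110), against −0.00539 for libraries of other numbers. Of 24 libraries, 6 correlated best with their own number. Strong pairing by number was not seen, and these values cannot show whether a weaker one exists. Signs that turned were those of values near 0: Avpr1a on average ran from −0.052 to 0.10 when 1 library was left out, and Avpr1a between labelled sexes was 0.0057 on log2(TPM + 0.1). Without oxytocin male 1 and 5, an alternative chosen after seeing the data, Avp on average became −0.055 and Oxt between labelled sexes −0.89. The cause was not tested. Depth limits Oxt, Avp and Oxtr, where a count of 0 allows 0.123 to 0.189 CPM per library.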
